A study of Mus musculus with 8 samples.

Results

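Osteocalcin, the main noncollagenous protein of bone matrix, and 5 markers of late osteoblasts and osteocytes were followed in mouse osteoblast progenitors through differentiation with or without LAMZ. The members were the 3 osteocalcin symbols Bglap, Bglap2 and Bglap3 together with Ifitm5, Sost, Phex, Pdpn and Fam20c, taken by symbol from the deposited tables. All 8 symbols were found, of 51822 symbols in all, and all 8 passed the filter on low values, which asked for 2 or more of the 8 libraries to reach 1 RPKM (reads scaled by gene length and library total). Bglap3 passed only through its day 14 libraries.

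The libraries form 4 groups of 2: day 7 control, day 7 LAMZ, day 14 control and day 14 LAMZ. Control cells received DMSO and treated cells LAMZ (locamidazole) at 1 µmol/L. Both were grown in osteogenic medium with ascorbic acid, dexamethasone at 10 nmol/L and β-glycerophosphate at 10 mmol/L and harvested on day 7 or 14. The column heading of the file labelled day 7 LAMZ replicate 1, unlike the others, does not name the treatment, and the label was used. The labels name the cells MC3T3-E1, a clonal line of mouse calvarial preosteoblasts, whereas the study's methods name cultured calvarial cells. The labels do not say whether replicates were separate cultures, so p values here measure only the spread between these libraries, which may be technical.

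Osteoblasts lay down a collagen matrix, mineralize it and in part become buried in it as osteocytes. Osteocalcin binds mineral after vitamin K-dependent carboxylation and is a classic late product of osteoblasts, IFITM5 appears as mineralization begins, podoplanin marks young osteocytes forming dendrites, PHEX and the secreted kinase FAM20C act on phosphate handling and mineralization, and sclerostin, the product of Sost, is a Wnt antagonist of mature osteocytes. In culture, these genes are used to mark how far osteoblasts have advanced.

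Depth was recovered from the values. With gene lengths from the GENCODE M21 annotation of GRCm38, low values of single-exon genes came out as whole reads (within 0.05 of a read) in 97.0% to 98.1% of cases (787 to 1478 per library), at 3463538 to 5832101 mapped reads. At this depth Bglap rested on 53 to 1284 reads, Bglap2 on 47 to 1390, Sost on 27 to 179 and Fam20c on 67 to 408. The reads of Fam20c use a length of 4223 bases, the smallest that gives whole reads in all 8 libraries, where GENCODE has 6590. Bglap3 rested on only 2 to 40 reads, near the 3 reads taken as the floor of a library in the day 7 groups.

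Promoter windows are shown for 4 members that went separate ways: Bglap, which rose from day 7 to day 14, Sost, whose rise with day was called under LAMZ, and Ifitm5 and Pdpn, which did not rise with day. RefSeq (GRCm38.p6) windows were found for 7 of the 8 members, all but Bglap2. Each is given 5′ to 3′ on the minus strand up to the RefSeq start, except that of Ifitm5, shown as the 202 of its 250 bases that lie before the GENCODE gene, with capitals for TGTGGT (a RUNX core), TATAAA or CCAAT on either strand.
Bglap, chr3:88384467-88384716: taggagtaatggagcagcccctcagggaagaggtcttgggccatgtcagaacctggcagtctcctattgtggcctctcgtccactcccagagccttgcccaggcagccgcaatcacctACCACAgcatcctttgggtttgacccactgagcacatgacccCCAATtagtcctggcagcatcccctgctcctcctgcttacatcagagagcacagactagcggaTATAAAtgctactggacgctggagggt
Sost, chr11:101967016-101967265: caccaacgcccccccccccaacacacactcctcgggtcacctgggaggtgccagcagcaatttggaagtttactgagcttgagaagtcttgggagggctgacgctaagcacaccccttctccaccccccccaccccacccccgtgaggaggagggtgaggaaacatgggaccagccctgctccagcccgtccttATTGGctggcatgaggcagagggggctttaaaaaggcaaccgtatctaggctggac
Ifitm5, chr7:140950292-140950493: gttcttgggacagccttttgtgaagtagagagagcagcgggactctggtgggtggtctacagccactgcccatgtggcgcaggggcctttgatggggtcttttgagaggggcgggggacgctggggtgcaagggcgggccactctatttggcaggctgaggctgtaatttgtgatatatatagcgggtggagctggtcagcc
Pdpn, chr4:143299565-143299814: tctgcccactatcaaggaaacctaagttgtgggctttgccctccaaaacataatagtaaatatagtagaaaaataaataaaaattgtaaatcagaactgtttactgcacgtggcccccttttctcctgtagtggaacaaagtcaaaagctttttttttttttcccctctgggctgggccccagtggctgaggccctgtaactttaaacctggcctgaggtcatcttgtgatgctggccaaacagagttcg
Over the 250 bases before the start, only the Bglap window among those of the 7 members held TGTGGT (as its complement, from base 132 before the start) and TATAAA (from base 27). Among all 32851 promoter windows of this length, 14.0% held TGTGGT, 12.4% TATAAA and 33.8% CCAAT. The E-box letters CANNTG, found in 66.2% of windows, occurred in those of Bglap, Sost, Ifitm5, Pdpn and Phex and in each of the 3 windows of Bglap3, but not in that of Fam20c. The motifs do not overlap in the windows shown. A match is a description of letters and not a sign of binding.

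The 3 osteocalcin genes lie side by side on the minus strand of chromosome 3, Bglap at 88383501 to 88384464, Bglap2 at 88377736 to 88378699 and Bglap3 at 88368616 to 88372743. Their transcripts are alike: 51.3% of all 50-base windows of the Bglap transcripts also occur in Bglap2, and 88.2% of those of Bglap2 occur in Bglap or Bglap3. At 100 bases the shares were 37.0% and 57.0%. How the authors' counting divided shared reads is not given in the sources used here, so the split between the symbols is uncertain and their summed RPKM is given as well.

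From day 7 to day 14, Bglap and Bglap2 were the members called higher both with and without LAMZ. Both control calls were lost without either day 14 control library or with no filter. The day 14 libraries of Bglap3, Phex and Fam20c also lay above their day 7 libraries in both conditions. With 2 libraries in a group, such a separation arises easily without any change. Its share over all tested genes is not given, so here and below it only describes levels. Phex was called in control as well once libraries were rescaled to the same sum (0.71, adjusted p = 0.0488 from limma). A single symbol, Rn7s1, made up 18.1% to 33.7% of the RPKM sum of a library. All values rescaled to the same sum, here and below, therefore depend in part on the level of Rn7s1. In control cells, 2 of the 8 members rose (beside 2.46% of the 12514 tested genes that rose and 4.86% that changed), both of them osteocalcin genes, and none fell, beside 2.40% of genes. In LAMZ-treated cells, 6 were called higher (beside 5.10% of tested genes called higher and 14.4% called in all) and none lower, beside 9.26%. Of these 6, Bglap3 entered the test through its high group and is no support, which leaves 5. Bglap and Bglap2 are neighbouring copies that share sequence, so in either condition their 2 calls are not independent of each other. Calls are adjusted p values under 0.05 from limma on log2(RPKM + 1), a scale that understates the change of low genes. The members that did not follow the rise under either condition were Ifitm5 and Pdpn.

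**Figure D1:**
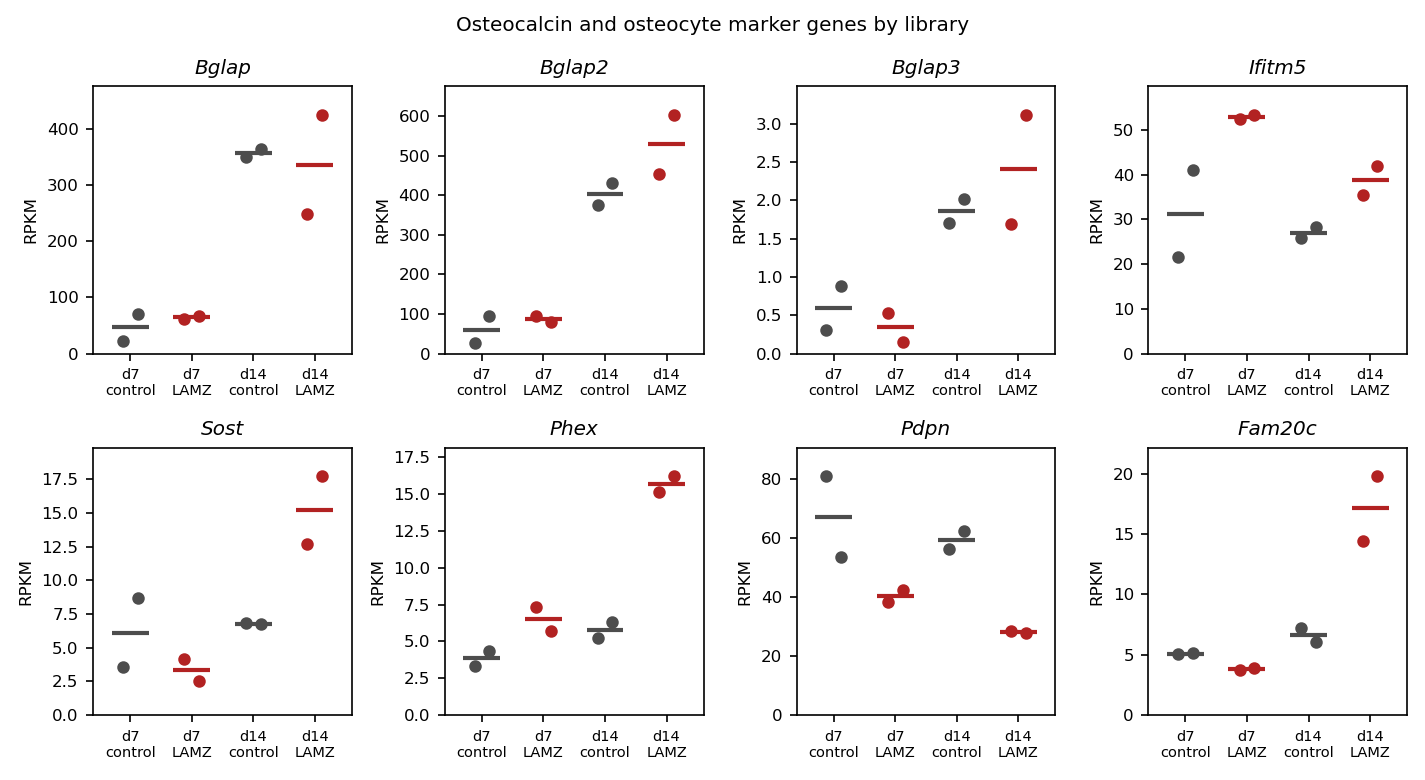
RPKM of each of the 8 genes in the 8 libraries, with points for libraries, bars for group means, grey for control and red for LAMZ. Bglap and Bglap2 lie under 100 at day 7 and far above that at day 14, whereas Ifitm5 is highest in day 7 LAMZ and Pdpn lowest in day 14 LAMZ.

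Bglap encodes osteocalcin itself. Its RPKM was 22.7 and 70.5 in day 7 control, 61.1 and 67.7 in day 7 LAMZ, 350.8 and 364.0 in day 14 control, and 247.8 and 425.6 in day 14 LAMZ. Every day 14 library stood above every day 7 library, while the LAMZ and control libraries of a day overlapped. With day, Bglap rose by a log2 fold change of 3.12 in control (standard error 0.46, adjusted p = 0.0131 from limma), the largest of the 12514 tested genes, and of 2.32 with LAMZ (adjusted p = 0.0149 from limma). Without day 7 control replicate 1 and 2 respectively, the control value was 2.32 and 3.92. The rise in control missed the threshold without day 14 control replicate 1 or 2 (adjusted p = 0.0931 and 0.0690 from limma) and with no filter on low values (0.0565), in a range of 1.14e-05 to 0.0931 over 16 alternatives. With LAMZ it missed it without day 7 LAMZ replicate 1 or 2 (0.0876 and 0.0862), without day 14 LAMZ replicate 2 (0.105) and with no filter (0.0605), adjusted p values from limma in a range of 1.25e-05 to 0.105.

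Against control, LAMZ gave a Bglap difference of 0.66 at day 7 (adjusted p = 0.395 from limma), which was −0.13 without day 7 control replicate 1 and 1.46 without replicate 2 (adjusted p = 0.0265 from limma, range 0.0265 to 0.824), and 0.36 when rescaled to the same sum. At day 14 it was −0.14 (adjusted p = 0.857 from limma), turning to 0.05 with each library centred on its median and reaching −0.50 when rescaled. It was 0.25 without day 14 LAMZ replicate 1 and −0.53 without day 14 LAMZ replicate 2. Neither difference passed the threshold, and the day changes differed by −0.80 (adjusted p = 0.576 from limma). That difference was −0.0060 without day 7 control replicate 1, −1.60 without day 7 control replicate 2 and −0.41 without day 14 LAMZ replicate 1.

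Bglap2, the neighbouring copy, had an RPKM of 26.5 and 95.0 in day 7 control and 96.1 and 78.7 in day 7 LAMZ. At day 14 it stood at 376.0 and 430.7 in control and at 454.3 and 604.5 with LAMZ. Again all day 14 libraries were above all day 7 libraries, and at day 14 both LAMZ libraries were above both control libraries. It rose with day by a log2 fold change of 2.97 in control (standard error 0.48, adjusted p = 0.0180 from limma), rank 3 of the tested genes, and of 2.58 with LAMZ (adjusted p = 0.0126 from limma). The control value was 2.07 without day 7 control replicate 1 and 3.88 without day 7 control replicate 2. In control the call was lost without day 14 control replicate 1 or 2 (adjusted p = 0.105 and 0.0905 from limma) and with no filter (0.0689), in a range of 1.58e-05 to 0.105. With LAMZ it was lost without day 7 LAMZ replicate 1 or 2 (0.0620 and 0.0906), without day 14 LAMZ replicate 2 (0.0873) and with no filter (0.0513), adjusted p values from limma in a range of 2.22e-06 to 0.0906.

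The LAMZ difference of Bglap2 at day 14 was 0.38 (95% interval −0.74 to 1.50, adjusted p = 0.613 from limma), with 0.59 without day 14 LAMZ replicate 1 and 0.17 without day 14 LAMZ replicate 2. Rescaled to the same sum it was 0.017 (adjusted p = 0.981 from limma, range 0.159 to 0.981). At day 7 it was 0.78 (adjusted p = 0.345 from limma), with −0.13 without day 7 control replicate 1 and 1.68 without day 7 control replicate 2 (adjusted p = 0.00586 from limma, range 0.00586 to 0.765), and 0.47 when rescaled.

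Bglap3 is a related gene best known from kidney. Its RPKM was 0.303 and 0.879 in day 7 control, 0.535 and 0.146 in day 7 LAMZ, 1.70 and 2.02 in day 14 control, and 1.70 and 3.12 in day 14 LAMZ. It made up at most 0.611% of the osteocalcin sum in any library. The lowest value rests on 2 reads, with a 95% Poisson interval of 0.0177 to 0.527 that covers counting error only. It was higher at day 14 than at day 7 in both conditions without overlap. The fit gave 1.33 with LAMZ (standard error 0.28, adjusted p = 0.0195 from limma) and 0.87 in control (adjusted p = 0.124 from limma). Since only day 14 values brought Bglap3 past the filter, its adjusted p for day is no support for a rise. The call was lost without day 7 LAMZ replicate 1 or 2 (adjusted p = 0.0540 and 0.122 from limma), without day 14 LAMZ replicate 2 (0.139) and with no filter (0.0695), in a range of 0.00667 to 0.139 over 15 alternatives. The value itself hangs on the scale, at 0.47 with a pseudocount of 5 and 2.60 with 0.1.

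Summed over the 3 symbols, osteocalcin was 49.5 and 166.4 in day 7 control, 157.7 and 146.5 in day 7 LAMZ, 728.5 and 796.7 in day 14 control, and 703.8 and 1033.1 in day 14 LAMZ. All day 14 sums were above all day 7 sums. The symbols differ in length, so a sum of RPKM still moves with the split of shared reads. The summed reads do not, and without scaling for depth they were 103 and 314, 360 and 413, 2139 and 1958, and 2167 and 2714 in the same order, again higher in every day 14 library. It rose by a log2 fold change of 3.05 in control (standard error 0.47, adjusted p = 0.0152 from limma) and 2.48 with LAMZ (adjusted p = 0.0129 from limma). The control value was 2.19 without day 7 control replicate 1 and 3.92 without day 7 control replicate 2. LAMZ against control gave 0.73 at day 7 (95% interval −0.35 to 1.82) and 0.16 at day 14 (95% interval −0.92 to 1.25), neither past the threshold (adjusted p = 0.357 and 0.834 from limma), and these became 0.43 and −0.20 when rescaled to the same sum. The width of these intervals leaves room for a change of more than 1 log2 unit upwards. The ratio of Bglap2 to Bglap ran from 1.07 to 1.83 over the libraries and was highest in the first LAMZ library of day 14.

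Within day 7 control, replicate 1 had 3.36-fold less osteocalcin than replicate 2, the widest gap of any group. The day 7 comparison depends on these libraries. Without day 7 control replicate 1 the LAMZ difference of the sum at day 7 was −0.13 (adjusted p = 0.771 from limma), and without day 7 control replicate 2 it was 1.60 (adjusted p = 0.00846 from limma). The rise with day kept its direction under all 15 alternatives run for the sum. In control it missed the threshold without day 14 control replicate 1 or 2 (adjusted p = 0.0979 and 0.0780 from limma) and with no filter on low values (adjusted p = 0.0623 from limma). With LAMZ it missed it without day 7 LAMZ replicate 1 or 2 (0.0697 and 0.0879), without day 14 LAMZ replicate 2 (0.0918) and with no filter (0.0537), all adjusted p values from limma that ranged over the alternatives from 0.000933 to 0.0918.

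Ifitm5 encodes a small membrane protein of mineralizing osteoblasts, and its gene spans 140948958 to 140950291 of chromosome 7. Day 7 RPKM values of Ifitm5 were 21.5 and 41.1 in day 7 control and 52.4 and 53.4 in day 7 LAMZ. At day 14 it was 25.8 and 28.3 in control and 35.4 and 42.0 with LAMZ. So Ifitm5 was highest in day 7 LAMZ, on either day the LAMZ pair exceeded the control pair, and the control libraries of the days overlapped.

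The change of Ifitm5 with day was −0.13 in log2 in control (standard error 0.26, 95% interval −0.73 to 0.46, adjusted p = 0.808 from limma), turning to 0.11 once each library was rescaled to the same sum. With LAMZ it was −0.45 (95% interval −1.04 to 0.15, adjusted p = 0.278 from limma), below 0 under both scalings (−0.25 when rescaled). In control it was −0.59 without day 7 control replicate 1, 0.32 without day 7 control replicate 2 and −0.07 without day 14 control replicate 1. LAMZ against control gave 0.81 at day 7 (adjusted p = 0.0806 from limma) and 0.50 at day 14 (adjusted p = 0.205 from limma), neither past the threshold. Without day 7 control replicate 1 the day 7 difference was 0.36, and without day 7 control replicate 2 it was 1.26. It passed in 2 of 17 alternatives, the one without day 7 control replicate 2 among them. The day 14 difference passed without day 7 control replicate 1 or 2 (adjusted p = 0.0273 and 0.0277 from limma), in a range of 0.0273 to 0.685. Rescaled to the same sum, the differences were smaller, at 0.51 for day 7 and 0.14 for day 14 (adjusted p = 0.199 and 0.685 from limma).

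Of 7 genes listed around Ifitm5, the other Ifitm genes and Fkbp11, which encodes a partner of IFITM5, 5 were tested. At day 7, 1 was higher and 2 were lower with LAMZ, and at day 14, 2 were higher and 3 lower (median log2 fold change −0.09, above 0 with libraries centred on their medians, and −0.70, beside −0.08 and −0.15 over all tested genes). Of all tested genes, 4.35% were higher and 8.49% lower with LAMZ at day 7, and 6.96% and 16.0% at day 14. With day, the shares were 2.46% and 2.40% in control and 5.10% and 9.26% under LAMZ. They are the background for every list count, here and below, that names no scaling. Fkbp11 rose with LAMZ by 0.99 at day 7 and 1.28 at day 14 (adjusted p = 0.00700 and 0.00128 from limma). The broadly expressed antiviral gene Ifitm3 fell by 1.23 and 1.29 on the same scale (adjusted p = 0.000869 and 0.000353 from limma). Centred, 2 were higher and 1 lower at day 7, and rescaled, 1 was higher and 3 lower at day 14. With day, none of the 5 was called in control (2 higher when rescaled, 1 when centred) and 1, Ifitm10, was higher with LAMZ, with list medians of 0.13 and −0.16, the latter above 0 with libraries rescaled to the same sum.

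Sost, on chromosome 11 from 101962458 to 101967015, encodes sclerostin. Its RPKM was 3.59 and 8.66 in day 7 control, 4.20 and 2.51 in day 7 LAMZ, 6.85 and 6.75 in day 14 control, and 12.7 and 17.7 in day 14 LAMZ. The day 14 LAMZ libraries stood above all 6 others. Day 14 control lay inside the range of day 7 control.

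In control cells the day difference of Sost was 0.23 in log2 (standard error 0.34, 95% interval −0.56 to 1.02, adjusted p = 0.754 from limma), with −0.31 without day 7 control replicate 1 and 0.76 without day 7 control replicate 2, and 0.45 when rescaled. With LAMZ, Sost rose by 1.91 (adjusted p = 0.0106 from limma), a call lost without day 7 LAMZ replicate 2 (adjusted p = 0.0861 from limma) or day 14 LAMZ replicate 2 (0.0794), in a range of 0.000143 to 0.0861. The difference between the LAMZ effects of the days, which is also the difference between both day changes, was 1.68 (95% interval 0.56 to 2.80) and did not pass the threshold (adjusted p = 0.160 from limma). It passed in 1 of 17 alternatives, voom on recovered whole reads (1.91, adjusted p = 0.0365 from limma with voom), in a range of 0.0365 to 0.370. LAMZ against control was −0.64 at day 7 (adjusted p = 0.269 from limma) and 1.04 at day 14 (adjusted p = 0.0629 from limma), and over 17 alternatives the day 14 adjusted p ran from 0.00303 to 0.270. It was under 0.05 in 6, among them without day 7 control replicate 1 or 2 (adjusted p = 0.0162 and 0.0165 from limma). At day 7, leaving out day 7 control replicate 1 gave −1.18 (adjusted p = 0.0480 from limma, range 0.0480 to 0.840), leaving out day 7 control replicate 2 −0.11 and leaving out day 7 LAMZ replicate 2 −0.36.

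Of 12 genes listed around Sost (MEF2 and histone deacetylase regulators, LRP receptors and other secreted Wnt antagonists), 11 were tested. With LAMZ, 3 were higher and 1 lower at day 7 and 3 higher and 2 lower at day 14 (medians 0.47 and 0.02, the latter below 0 with libraries rescaled to the same sum). Rescaled, the counts were 2 higher and 2 lower at day 7 and 0 higher and 4 lower at day 14. The secreted antagonist Sfrp1 fell from 111.4 and 78.7 in day 7 control to 9.92 and 11.9 with LAMZ, and from 111.0 and 107.3 in day 14 control to 1.65 and 2.30, so its groups were far apart (log2 fold change −3.00 and −5.22, adjusted p = 0.000122 and 4.56e-06 from limma). Dkk1 was higher with LAMZ at day 7 (2.42, adjusted p = 0.00125 from limma). Mef2c, a transcription factor known to act on a distant Sost enhancer, was higher on both days (1.49 and 0.78, adjusted p = 0.000971 and 0.00908 from limma), though at day 14 the call was lost when rescaled (0.45, adjusted p = 0.0614 from limma). With day, 1 of the 11 was called higher in control, Mef2a, and 1 lower with LAMZ, Sfrp1, against 3 higher in control and 2 higher and 1 lower with LAMZ when rescaled (medians 0.39 and −0.14, the latter above 0 under the same rescaling).

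Phex, an X-linked gene for a membrane endopeptidase whose loss raises FGF23 and lowers serum phosphate, lies at 157162075 to 157415312. Its RPKM was 3.33 and 4.36 in day 7 control, 7.30 and 5.74 in day 7 LAMZ, 5.21 and 6.29 in day 14 control, and 15.2 and 16.2 in day 14 LAMZ. LAMZ libraries were above control libraries on both days, and day 14 libraries above day 7 libraries in control and with LAMZ. The LAMZ difference was 0.63 in log2 at day 7 (standard error 0.16, adjusted p = 0.0412 from limma) and 1.31 at day 14 (adjusted p = 0.00121 from limma).

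With day, Phex rose under LAMZ by 1.16 (adjusted p = 0.00426 from limma), while its 0.48 in control did not pass (adjusted p = 0.135 from limma), except when rescaled to the same sum (0.71, adjusted p = 0.0488 from limma, range 0.0488 to 0.394). The day changes differed by 0.67 (adjusted p = 0.206 from limma), so a stronger rise under LAMZ was not shown. The day 14 LAMZ difference and the rise under LAMZ passed under all 17 alternatives. The day 7 call was lost in 11 of 17, with adjusted p from 0.0118 to 0.228. The adjusted p from limma was 0.166 without day 7 control replicate 1, 0.228 and 0.0692 without day 7 LAMZ replicate 1 and 2, 0.0541 and 0.0545 without day 14 control replicate 1 and 2, and 0.0682 and 0.0683 without day 14 LAMZ replicate 1 and 2. No filter gave 0.109 and rescaling to the same sum 0.153.

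Fam20c, on the plus strand of chromosome 5 from 138754514 to 138810077, encodes the kinase that phosphorylates secreted proteins such as osteopontin and DMP1. Its RPKM was 5.02 and 5.13 in day 7 control, 3.72 and 3.91 in day 7 LAMZ, 7.23 and 6.02 in day 14 control, and 14.5 and 19.8 in day 14 LAMZ. It was thus lowest in day 7 LAMZ and highest in day 14 LAMZ, with no overlap between any of the groups. LAMZ against control was −0.34 in log2 at day 7 (standard error 0.16, adjusted p = 0.219 from limma), or −0.58 when rescaled to the same sum (adjusted p = 0.0316 from limma, range 0.0316 to 0.486), and 1.24 at day 14 (adjusted p = 0.00150 from limma).

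Fam20c was the member whose LAMZ effect differed between the days: the difference was 1.57 (95% interval 1.05 to 2.10, adjusted p = 0.0369 from limma), 1 of 8 members higher at day 14 and none lower, beside 0.623% of the tested genes that differed, 0.312% higher and 0.312% lower. This call was lost without any 1 of the 8 libraries, while the value stayed between 1.36 and 1.79. The adjusted p from limma was 0.0752 and 0.0793 without day 7 control replicate 1 and 2, 0.146 and 0.151 without day 7 LAMZ replicate 1 and 2, 0.1003 and 0.133 without day 14 control replicate 1 and 2, and 0.0869 and 0.124 without day 14 LAMZ replicate 1 and 2. With no filter it was lost too (adjusted p = 0.120 from limma), and also when replicate number was fitted as a block, so that 10 of 17 alternatives lost it. With day, Fam20c rose under LAMZ by 1.90 (adjusted p = 0.000673 from limma, under 0.05 in all 17 alternatives) and was at 0.32 in control (adjusted p = 0.290 from limma), or 0.21 without day 14 control replicate 1 and 0.55 when rescaled (adjusted p = 0.0716 from limma, range 0.0716 to 0.658).

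Of 10 listed genes of the FAM20 family, FGF23 processing and phosphate handling, all 10 were tested. With LAMZ, 4 were called higher at day 7 and 5 at day 14 and none lower (medians 0.05, below 0 with libraries rescaled to the same sum, and 0.54). Rescaled, the counts were 3 higher and 1 lower at day 7 and 3 higher and 2 lower at day 14. Galnt3, whose product protects FGF23 from cleavage, was higher by 1.33 and 1.78 (adjusted p = 0.00394 and 0.00054 from limma), and Fam20a, a pseudokinase partner of FAM20C, by 0.62 and 0.65 (adjusted p = 0.0478 and 0.0258 from limma), calls lost when rescaled (0.171 and 0.149). With day, none of the 10 was called in control (1 higher when rescaled), and under LAMZ 3 were called higher, among them the pyrophosphate transporter Ank (1.66, adjusted p = 0.00288 from limma), with medians of 0.19 and 0.28. Another of the 3, Enpp1, passed the filter through day 14 alone and is no support. The phosphatase Phospho1 was called lower (−0.47, adjusted p = 0.0360 from limma), which was lost when rescaled (0.238) or centred (0.0518).

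Pdpn encodes podoplanin, a membrane mucin linked to the actin cytoskeleton, on chromosome 4 from 143267431 to 143299564. Its RPKM was 81.0 and 53.5 in day 7 control, 38.5 and 42.3 in day 7 LAMZ, 56.5 and 62.6 in day 14 control, and 28.4 and 27.7 in day 14 LAMZ. It was the only member lower with LAMZ on both days, with no overlap on either. The fall was 0.70 in log2 at day 7 (log2 fold change −0.70, standard error 0.19, adjusted p = 0.0464 from limma) and 1.06 at day 14 (−1.06, adjusted p = 0.00566 from limma).

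With day, Pdpn changed by −0.15 in control (95% interval −0.57 to 0.28, adjusted p = 0.704 from limma), turning to 0.11 with each library rescaled to the same sum, and by −0.51 with LAMZ (95% interval −0.94 to −0.08, adjusted p = 0.106 from limma), or −0.31 when rescaled. Neither passed the threshold. The day 14 LAMZ difference passed under all 17 alternatives, while the day 7 call was lost in 11 of them (adjusted p from 0.00528 to 0.220). The value was −0.40 without day 7 control replicate 1 (adjusted p = 0.131 from limma). The adjusted p was 0.220 and 0.133 without day 7 LAMZ replicate 1 and 2, 0.0692 and 0.0695 without day 14 control replicate 1 and 2, and 0.0773 and 0.0777 without day 14 LAMZ replicate 1 and 2. The day change in control was 0.15 without day 7 control replicate 1, −0.44 without day 7 control replicate 2 and −0.07 without day 14 control replicate 1. With LAMZ it passed in 3 of 17 alternatives, among them those without day 7 control replicate 1 or 2.

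Of 6 listed partners of podoplanin, 5 were tested. None was called at day 7 or with day, and 1, the tetraspanin Cd9, was higher with LAMZ at day 14 (0.58, adjusted p = 0.0424 from limma; 0.22 and 0.360 when rescaled), with medians of −0.14 and 0.10 for LAMZ, the latter below 0 with libraries rescaled to the same sum, and 0.29 and 0.42 for day. Rescaled, 1 was lower with LAMZ on each day and 2 were higher with day in each condition. Centred, 1 was higher at day 7, 2 at day 14 and 2 with day under LAMZ, beside 6.85%, 12.8% and 7.38% of all tested genes.

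**Figure D2:**
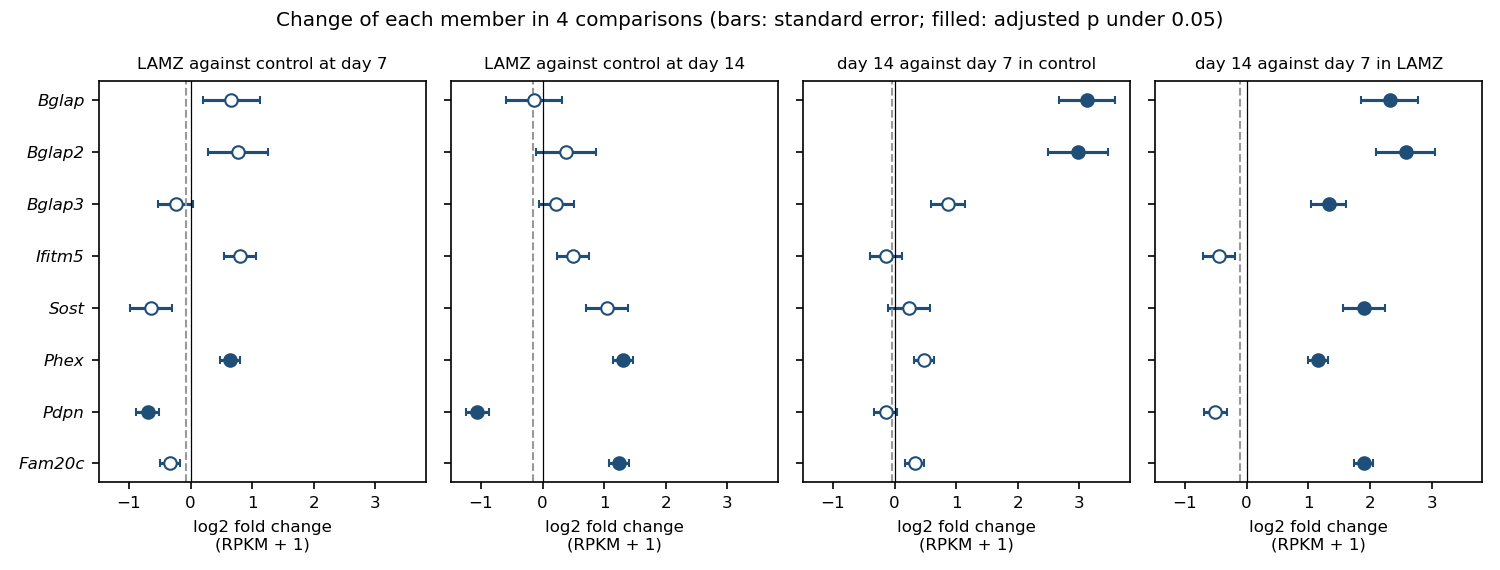
Log2 fold change of each member (dots) with its standard error (bars) in 4 comparisons, filled where the adjusted p from limma was under 0.05, with the median of all tested genes as a dashed line. Filled dots are 2 at day 7, 3 at day 14, 2 with day in control and 6 with day under LAMZ, of which Bglap3 passed the filter through day 14 alone.

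Counted over the panel, LAMZ changed 2 of the 8 members at day 7, Phex higher and Pdpn lower, beside 12.8% of all tested genes changed, 4.35% higher and 8.49% lower. Rescaled to the same sum, none was called higher at day 7 and 2, Pdpn and Fam20c, were lower, beside 2.49% of all tested genes higher and 26.2% lower under that scaling. At day 14 it changed 3, Phex and Fam20c higher and Pdpn lower, beside 23.0% changed, 6.96% higher and 16.0% lower. The members' median log2 fold change was 0.20 at day 7 and 0.44 at day 14, beside −0.08 and −0.15 over all tested genes. For day it was 0.40 in control and 1.61 with LAMZ, beside −0.05 and −0.11. Rescaling each library to the same sum, of which Rn7s1 was the largest part, moved the medians of all tested genes to −0.31, −0.43, 0.16 and 0.03 in this order. It moved those of the members to 0.02, 0.08, 0.63 and 1.70. Under it, 3.78% of all tested genes were higher and 42.5% lower with LAMZ at day 14, 7.77% higher and 1.30% lower with day in control, and 7.72% and 4.44% with day under LAMZ, the background for every rescaled count given here. With each library centred on its median, 6.85% were higher and 5.95% lower with LAMZ at day 7 and 12.8% and 9.98% at day 14. For day, the centred shares were 2.92% and 2.74% in control and 7.38% and 7.24% under LAMZ. They are the background for every centred count given here. The comparisons within a day and between days share libraries and are not independent of each other.

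**Figure D3:**
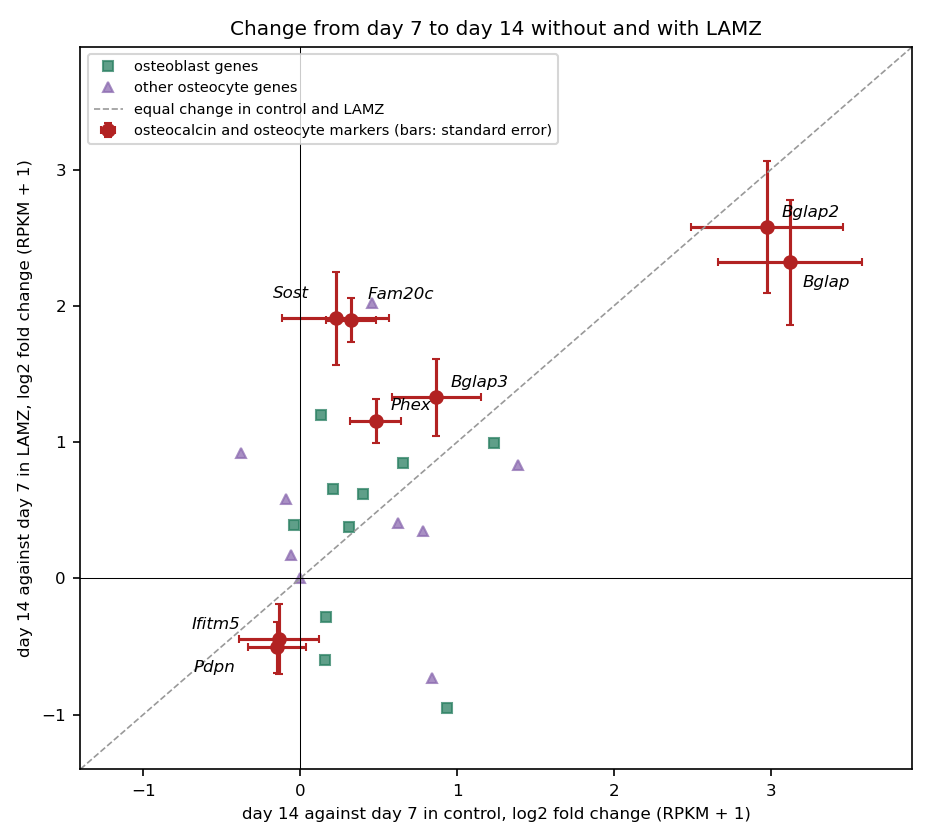
Change from day 7 to day 14 in control (horizontal axis) and with LAMZ (vertical axis), as log2 fold change on RPKM + 1, for the 8 members (red, bars for standard errors), osteoblast genes (green squares) and other osteocyte genes (purple triangles). Bglap and Bglap2 lie at the upper right, Sost and Fam20c high on the left, and Ifitm5 and Pdpn below 0 on both axes, with neither past the threshold and both above 0 in control after rescaling to the same sum.

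By level, the order of the members shifted with day at the top in control, while with LAMZ Bglap2, Bglap, Ifitm5 and Pdpn were the first 4 on both days. In day 7 control, the mean RPKM was highest for Pdpn (67.3 ± 19.4, SD, n = 2), then Bglap2 (60.7 ± 48.5), Bglap (46.6 ± 33.8) and Ifitm5 (31.3 ± 13.9), and the ranges of neighbours in this order overlapped. Sost, Fam20c and Phex followed at 6.13, 5.08 and 3.85, and Bglap3 was last at 0.591. At day 14, Bglap2 and Bglap led with or without LAMZ (529.4 and 336.7 with LAMZ), Ifitm5 stood above Pdpn with LAMZ and below it in control, and Sost, Fam20c and Phex lay close together. These are levels per gene length in RPKM.

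Other genes of the lineage give the frame for these changes. Of 10 osteoblast genes, all tested, 6 were higher with LAMZ at day 7 and 6 higher and 1 lower at day 14 (medians 1.18 and 0.68), led by Spp1, the gene for osteopontin (3.23 and 2.99, adjusted p = 0.00139 and 0.00108 from limma). Of all tested genes, 4.35% were higher at day 7, and 6.96% were higher and 16.0% lower at day 14. With day, 1 of the 10 was called higher in control, and 3 higher and 2 lower under LAMZ (medians 0.26 and 0.50). The shares of all tested genes were 2.46% higher in control, and 5.10% higher and 9.26% lower under LAMZ. Runx2, the master regulator of the lineage, was lower with day under LAMZ (−0.60, adjusted p = 0.0285 from limma), a call lost when rescaled (0.142) or centred (0.0555). Under LAMZ, 6 were higher and 1 lower with day under either scaling, and in control 3 were higher when rescaled (median 0.52) and 1 when centred. At day 14, LAMZ against control gave 5 higher and 1 lower when rescaled and 8 higher and 0 lower when centred. The centred counts stand beside 12.8% of all tested genes higher and 9.98% lower. Osteomodulin, encoded by Omd, rose with day in control by 0.94 and fell under LAMZ (−0.95; adjusted p = 0.0156 and 0.00611 from limma), and the day changes differed by −1.89 (adjusted p = 0.0243 from limma).

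Of 10 other osteocyte genes, 9 were tested and Fgf23 was not, at an RPKM of 0 in 6 of the 8 libraries. With LAMZ, 3 were higher and 1 lower at day 7 and 4 higher and 1 lower at day 14 (medians 0.36 and 0.62). Dmp1, for a mineral-binding matrix protein, was higher on both days (3.48 and 2.92, adjusted p = 5.49e-05 and 4e-05 from limma). Mepe, a marker of mineralizing osteocytes, was at 0 and 0.172 in day 7 control and at 4.79 and 9.13 in day 14 LAMZ, so it was low except in the last group, where the LAMZ difference was 2.37 (adjusted p = 0.000885 from limma). The LAMZ counts were 3 higher and 2 lower at day 7 and 3 higher and 1 lower at day 14 when rescaled. Centred, they were 7 higher and 1 lower at day 14, beside 12.8% of all tested genes higher and 9.98% lower. With day, 2 were called higher in control and 4 under LAMZ and none lower (medians 0.46 and 0.41), and 3 and 5 when rescaled. Only LAMZ libraries brought Mepe past the filter, so its adjusted p is no support. Without Mepe, the higher counts at day 14 are 3, or 2 when rescaled and 6 when centred, and with day under LAMZ 3, or 4 when rescaled. Capg, for an actin-capping protein, was lower with LAMZ on both days (−1.08 and −1.30, adjusted p = 0.00237 and 0.000534 from limma). The summed macrophage markers given below were lower with LAMZ too, and the part of macrophage RNA in the Capg difference was not tested.

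Genes that process osteocalcin, those of the vitamin K cycle, furin and a proposed receptor, depended on the scaling. Of 7 listed, 6 were tested and none was called with LAMZ on either day (medians −0.02 and 0.02, which change sign with centred and with rescaled libraries respectively) or with day in control (median −0.10, above 0 when rescaled). Rescaled, 2 were lower with LAMZ on each day, and centred, 1 was higher at day 7 and 2 at day 14. Under LAMZ 1 was called higher with day, Nqo1, and 1 lower, Vkorc1l1, whose call was lost when rescaled (adjusted p = 0.225 from limma) or centred (0.111), with a median of −0.17, above 0 when rescaled. The carboxylase gene Ggcx stayed between 14.8 and 20.0 RPKM in all 8 libraries, and the receptor gene Gprc6a at most reached 0.261. The reference gene Gapdh ran from 45.1 to 117.9 RPKM, with a LAMZ difference of 0.62 at day 7 and 0.71 at day 14 (adjusted p = 0.214 and 0.121 from limma), above 0 under both scalings.

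The genes closest in pattern to each member over the 8 libraries, by Pearson correlation of log2(RPKM + 1) among 5604 tested genes with a mean RPKM of at least 5, are given as a description. For the osteocalcin sum they were Slc7a2, Mef2a and Tnfaip2 (r of 0.982 to 0.963). Cdc5l, Smpd3 and Slc8a3 came closest to Ifitm5 (0.972 to 0.957), Ctdspl, Slc12a4 and Col1a2 to Sost (0.966 to 0.941), and Col1a2, Mustn1 and Hspa2 to Fam20c (0.976 to 0.963). Phex was nearest to Kctd15, Bmp8a and Tlcd2 (0.994 to 0.991) and Pdpn to Add1, Pik3r3 and Oaf (0.994 to 0.986). Bglap3 was nearest to Pltp, Slc7a2 and Ctsf (0.956 to 0.948), and Bglap and Bglap2 each had the other among the closest 3. The correlations run over 4 groups of 2 libraries and mostly reflect group means.

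Markers of other cell types moved with LAMZ, and in bulk RNA fewer cells of a type and less RNA per cell cannot be told apart. Of 14 macrophage markers, 13 had an entry, and their summed RPKM was 465.3 and 603.7 in day 7 control, 1126.6 and 1170.8 in day 14 control, 9.28 and 7.28 in day 7 LAMZ, and 7.14 and 7.60 in day 14 LAMZ. Lyz2 was the most abundant in every library, and C1qa, C1qb, C1qc, Tyrobp and Laptm5 were listed at 0 in all 4 LAMZ libraries. The 2 groups of libraries were far apart, and the list was lower with LAMZ in 11 of 13 genes at day 7 and 12 at day 14 and higher with day in 10 in control, with 0 called with day under LAMZ. Genes near 0 in a condition passed the filter through the other, so these counts describe levels. The part of macrophage RNA in any member's difference was not tested.

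Adipocyte markers (7 of 7 with an entry) were lower with LAMZ as well, with sums of 43.3 and 31.0 in day 7 control, 9.67 and 8.63 in day 7 LAMZ, 63.4 and 125.6 in day 14 control and 11.4 and 12.2 in day 14 LAMZ. Lpl led in 7 libraries and Fabp4 in day 14 control replicate 2, and of 6 tested 2 were lower at day 7 and 4 at day 14 (3 and 6 when rescaled), counts in which Adipoq, Fabp4 and Cfd passed the filter through control libraries alone and are no support, and 1 was higher with day in each condition. Chondrocyte markers (8 of 8) were higher, with sums of 277.4 and 217.3, then 537.1 and 551.1, at day 7 and 159.4 and 160.7, then 411.6 and 460.4, at day 14 in control and LAMZ. Col2a1 led in each library, and 6 of 8 were higher on each day (5 without Matn3, which passed the filter through LAMZ libraries alone), with 1 lower at day 14 (0 when centred) and 2 lower with day in control and under LAMZ (1 under LAMZ when rescaled). Rescaled, 5 were higher on each day, Matn3 included. Their part in the members' differences was not tested.

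Osteoclast markers (8 of 8) summed to between 97.2 and 142.1, led by Ctsk, with Itgb3 at 14.4 to 17.1 in the LAMZ libraries, Dcstamp at 0 in 6 libraries and Calcr in 5. Of 4 tested, 1 was higher with LAMZ at day 7, 2 at day 14 and 1 with day under LAMZ. For endothelium (8 of 8, lymphatic markers included, since podoplanin also marks lymphatic vessels), sums were 0.856 to 3.36, led by Tek or Cdh5, with Prox1 and Lyve1 at or under 0.447. Only Tek was tested, which passed the filter through control libraries alone, so its calls (lower with LAMZ on both days) are no support. Skeletal muscle markers (8 of 8) summed to 3.01 to 9.64 led by Acta1, Tnnt3 or Des, except in day 14 LAMZ, where they reached 31.5 and 26.0 led by Acta1, with Myog, Ckm and Myod1 at or under 0.274 throughout. Of 3 tested, 1 was called higher with LAMZ at day 7 (0 when rescaled) and 2 at day 14, and 2 higher and 1 lower with day under LAMZ (0 lower when rescaled). Osteoblast markers (8 of 8) were abundant in all libraries, with sums of 9597.3 to 21221.6 led by Col1a1 and highest in day 14 LAMZ. Of 8, 5 were called higher with LAMZ on each day, and 3 higher and 1 lower with day under LAMZ (5 and 0 under either scaling). The part of these lists in the members' differences was not tested.

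**Figure D4:**
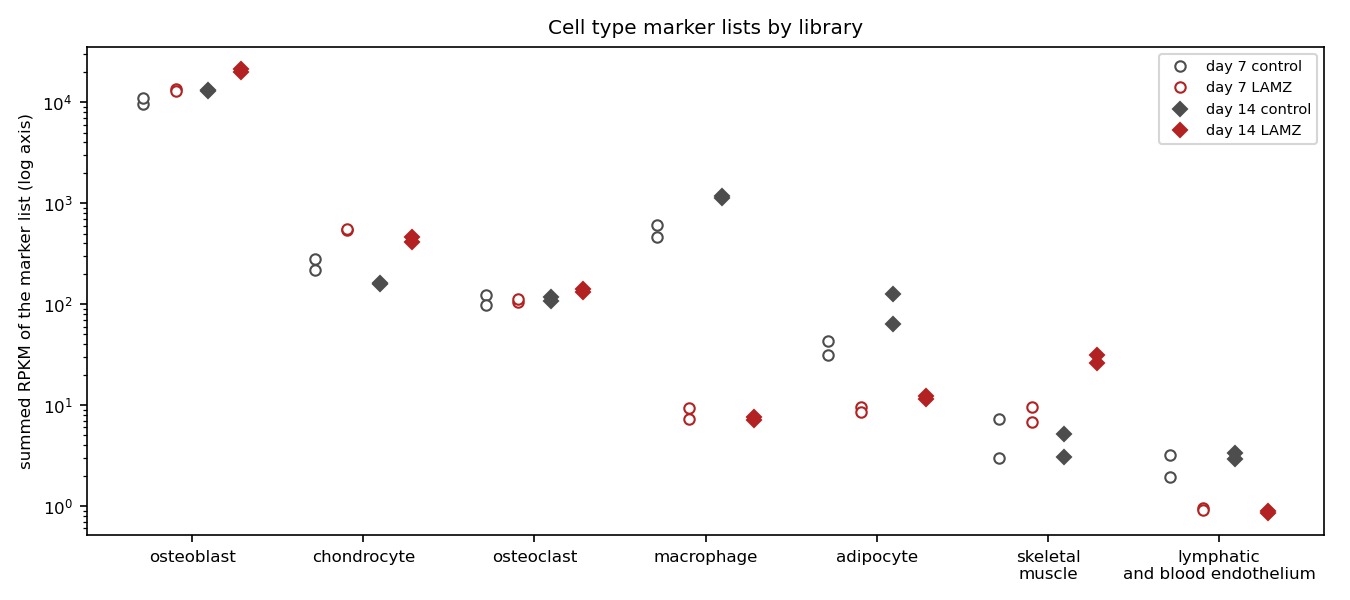
Summed RPKM (log axis) of 7 cell type marker lists in the 8 libraries, grey for control and red for LAMZ, open circles for day 7 and filled diamonds for day 14. Macrophage and adipocyte sums are lower in all 4 LAMZ libraries than in any control library, and chondrocyte sums are higher.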

How the data were processed

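RNA of 8 libraries, 2 in each of 4 groups, was sequenced on an Ion Proton. Per the labels, the authors mapped reads to mm10 with CLC Genomics Workbench and deposited RPKM for each gene symbol. The test took 12514 of 51822 symbols, those reaching 1 RPKM in 2 or more libraries. Log2(RPKM + 1) was fitted with limma 3.58.1 (R 4.3.3; lmFit, and eBayes with a trend) as 4 groups without covariates, leaving 4 residual degrees of freedom. The comparisons were LAMZ against control on each day, day 14 against day 7 in each condition, and the difference of the LAMZ effects. P values were adjusted over all tested genes by the Benjamini-Hochberg method and called under 0.05. The code was tested on simulated data.

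Depth was estimated as the number of mapped reads that turns small RPKM values of genes with a single exon into whole reads, and reads behind each member follow from it. The length of Fam20c was taken as the one that gave whole reads. Promoter windows came from RefSeq and transcripts from GENCODE M21.

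Alternatives were pseudocounts of 0.1 and 5, no filter, a mean RPKM of at least 5, rescaling to the same sum, centring on the median, a replicate block, summed osteocalcin and each library left out. The sum used for rescaling included Rn7s1, the most abundant symbol in every library. Voom on recovered whole reads was added after seeing the data and took the 9152 tested genes (73.1%) with whole reads in all 8 libraries, within 0.001 of a read. A library left alone in its group is assumed to vary like the other groups.

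The members and lists were chosen with earlier results of these data known. From each list, up to 4 called genes per comparison with the largest changes were named, with any gene needed to account for the list, the 3 genes nearest in pattern to each member, and Gapdh. The lists are osteoblast genes, other osteocyte genes, osteocalcin processing, FAM20, FGF23 and phosphate, genes around Sost, the Ifitm family with Fkbp11, podoplanin partners and markers of 7 cell types.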

Additional observations from a re-analysis of the deposited data

Results flagged for a closer look

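The effect of LAMZ on Fam20c differed between the days. The difference was 1.57 in log2 (adjusted p = 0.0369 from limma), as LAMZ libraries lay below control libraries at day 7 and above them at day 14 in 2 of 2 libraries each. It was the only member whose difference between the days passed the threshold. The call was lost without any 1 of the 8 libraries, with no filter and with the replicate block. The day 7 difference alone passed only with libraries rescaled to the same sum (−0.58, adjusted p = 0.0316 from limma). The cause was not tested.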

How the results depend on the processing

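Over 17 alternatives, 16 planned and 1 added, the 16 called results of the members and the osteocalcin sum had 262 values: 203 kept direction and threshold, 59 kept direction only and 0 reversed. These include Bglap3 with day under LAMZ, which is no support. Of its 15 values, 11 kept the threshold. The 29 uncalled results had 473 values, of which 435 kept direction and side, 20 passed the threshold and 18 changed direction. The cause was not tested.
Without day 7 control replicate 1 and 2 respectively, LAMZ against control at day 7 was −0.13 and 1.46 for Bglap, −0.13 and 1.68 for Bglap2, −0.50 and 0.026 for Bglap3 and −0.13 and 1.60 for the sum. Day 14 against day 7 in control was −0.59 and 0.32 for Ifitm5, −0.31 and 0.76 for Sost, and 0.15 and −0.44 for Pdpn. The difference of LAMZ effects was 0.51 and −1.30 for Bglap2, 0.14 and −0.76 for Ifitm5 and 0.29 and −1.44 for the sum. Without day 14 LAMZ replicate 1 and 2, LAMZ against control at day 14 was 0.25 and −0.53 for Bglap, 0.53 and −0.083 for Bglap3 and 0.44 and −0.11 for the sum. It was 0.053 for Bglap when centred and −0.024 for Bglap3 and −0.20 for the sum with the same sum, which also gave 0.11 for Ifitm5 and for Pdpn with day in control.
Members called at day 7 were 2, and 0 with a pseudocount of 5, no filter or the replicate block, 1 when centred, and 0 to 5 with a library left out. At day 14 they were 3, and 3 to 5 with a library left out. With day in control they were 2, and 0 with no filter, 1 with summed osteocalcin, 3 when rescaled to the same sum, and fewer or the same with a library left out. With LAMZ they were 6, and 3 with no filter, and fewer or more with a library left out. For the difference of LAMZ effects they were 1, and 0 with no filter, the block or any library left out, and 2 with voom.
Genes called at day 7 were 1607, and 951 with no filter, 3592 with the same sum and 527 to 1383 with a library left out. At day 14 they were 2878, and 1795 with a mean RPKM of at least 5, 5796 with the same sum and 1512 to 3087. With day in control they were 608, and 203 with no filter, 1135 with the same sum and 69 to 453, and with LAMZ 1797, 1091 with no filter and 488 to 1890. For the difference they were 78, and 34 and 166 with pseudocounts of 0.1 and 5, 0 with no filter, 144 with a mean RPKM of at least 5, 17 with the block, 279 with voom and 0 to 21.
Of the calls, 33.9% at day 7, 30.3% at day 14, 50.7% with day in control, 35.5% with day under LAMZ and 50% for the difference were higher. With the same sum these were 8.69%, 8.16%, 85.6%, 63.5% and 40.6%, and with centring 53.5%, 56.3%, 51.6%, 50.5% and 62.7%.
Replicates share only a number, and same-number deviations correlated at −0.0166, 0.0158, 0.0620 and −0.0342. At this depth Bglap3 rests on 2 to 40 reads.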
